A study of Mus musculus with 8 samples.

Results

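The 10 genes of the Id family and of signalling by bone morphogenetic proteins (BMPs) described here were followed in C2C12 myotubes that were starved of fresh medium. They were the Id factors Id1, Id2, Id3 and Id4, the ligand Bmp4, the receptors Bmpr1a and Bmpr2, and the signal transducers Smad1, Smad5 and Smad6. All probe sets were taken whose platform annotation names exactly 1 gene symbol and whose symbol is one of these 10. That gave 20 of the 22690 probe sets on the array, with at least 1 for each gene, so that 10 of the 12393 genes named by a single symbol are described. C2C12 is a mouse myoblast line whose cells fuse into contractile myotubes when serum is lowered. All cells were differentiated in medium with 2% horse serum, renewed every 48 h until day 4. From then on the control cells (arrays A to D) went on being fed every 48 h. The starved cells (arrays E to H) received no new medium for 4 days, and RNA of both groups was taken on day 8. No drug, transgene or mutation was part of the design, and the labels do not say whether arrays of a group came from separate cultures. What the p-values measure is then the spread between 4 arrays, and that spread may be technical.

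BMPs are secreted dimers that bring together type I receptors such as Bmpr1a and type II receptors such as Bmpr2 at the cell surface. The activated type I receptor phosphorylates Smad1 and Smad5, which enter the nucleus with Smad4, while Smad6 is an inhibitory Smad that dampens the signal. Id genes are among the best known targets of this pathway. Their proteins hold a helix-loop-helix domain but no DNA-binding region, pair with E proteins such as those of Tcf3 and Tcf12, and so keep myogenic factors such as MyoD from binding DNA as a dimer. In cultured myoblasts BMP holds back myotube formation, and Id expression is known to fall as the cells differentiate.

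The sequences upstream of 4 of these genes are shown because Id3 and Bmp4 carried the 2 changes described below, Id2 is a paralog of Id3 that did not pass the test, and Smad6 is a feedback target of the pathway. They are RefSeq sequences of assembly GRCm38.p6, written 5′ to 3′ on the gene's own strand and ending just before the annotated start, except that of Smad6, which runs 4 bases past it. Capitals mark 3 motifs that Smad complexes are known to bind: the GC-rich element GGCGCC, the Smad half-site CAGAC read on either strand and the palindrome GTCTAGAC. None of the 3 motifs contains another. The Id3 stretch lies at chr4:136143572-136143821 on the plus strand, that of Id2 at chr12:25096093-25096342, that of Bmp4 at chr14:46390670-46390919 and that of Smad6 at chr9:64022056-64022309, these 3 on the minus strand.
Id3: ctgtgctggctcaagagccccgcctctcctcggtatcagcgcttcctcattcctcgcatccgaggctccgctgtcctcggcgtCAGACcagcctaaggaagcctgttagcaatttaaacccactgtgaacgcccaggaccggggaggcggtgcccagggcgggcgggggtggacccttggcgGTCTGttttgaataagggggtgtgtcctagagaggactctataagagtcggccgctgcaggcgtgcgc
Id2: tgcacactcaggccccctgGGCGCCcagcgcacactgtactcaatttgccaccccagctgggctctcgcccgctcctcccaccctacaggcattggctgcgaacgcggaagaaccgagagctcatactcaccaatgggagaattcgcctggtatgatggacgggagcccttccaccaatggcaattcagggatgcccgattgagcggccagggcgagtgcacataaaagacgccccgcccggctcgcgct
Bmp4: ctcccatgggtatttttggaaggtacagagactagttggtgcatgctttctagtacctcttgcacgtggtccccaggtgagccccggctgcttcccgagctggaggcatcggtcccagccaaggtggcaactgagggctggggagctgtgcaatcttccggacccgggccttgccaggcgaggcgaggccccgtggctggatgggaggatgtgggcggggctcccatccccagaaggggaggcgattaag
Smad6: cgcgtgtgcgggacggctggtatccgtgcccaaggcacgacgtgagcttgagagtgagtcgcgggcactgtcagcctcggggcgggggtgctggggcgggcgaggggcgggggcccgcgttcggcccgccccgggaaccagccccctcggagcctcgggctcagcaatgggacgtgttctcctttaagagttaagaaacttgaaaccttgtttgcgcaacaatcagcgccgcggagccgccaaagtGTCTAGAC
The Id3 stretch holds the half-site at 2 places, 167 and 68 bases before the start. The Id2 stretch holds GGCGCC 231 bases before the start, and the Bmp4 stretch holds none of the 3 motifs. The palindrome of Smad6 begins 4 bases before its start and reaches over it. Windows of 300 bases, 250 before to 50 after a start, were at hand for 9 of the 10 genes. GGCGCC was found in 5 of these genes (Id2, Id4, Bmpr1a, Bmpr2 and Smad5), the half-site in 2 (Id3 and Smad5) and the palindrome in 1. Of all 32851 mouse windows of that length, 11.9% hold GGCGCC, 49.6% the half-site and 0.213% the palindrome on either strand. These matches describe the letters only and are no evidence of binding.

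Id3 rose and Bmp4 fell in starved myotubes, each by about the same factor, while the receptor and Smad genes that could be tested did not pass the test. Id3 was 2.13-fold higher, and Bmp4 was 2.06-fold lower, written as control over starved. Levels are given as normalized log2 signals, that is log2 of the deposited intensity plus an offset of 10.9, made comparable between arrays by quantile normalization. Changes are differences of group means on this scale, starved minus control, with standard errors from limma's linear model, n = 4 arrays per group. The p-values were adjusted by the Benjamini-Hochberg method over the 13575 probe sets bright enough to be tested, and a gene counts as called under 0.05. A gene stands for its brightest tested probe set. Of the 10 genes 8 were bright enough for the test, and Id4 and Bmpr2 were not. Of the 8, 1 was called higher and 1 lower. Over all 8352 genes tested 4.25% were called higher and 6.94% lower, so that 11.2% were called in either direction. In unscaled values, where the median change of all tested probe sets was -0.33, these shares were 0.539% higher and 12.3% lower. Array signals measure RNA of whole cultures, in which fewer cells of a type and less RNA per cell cannot be told apart.

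**Figure D1:**
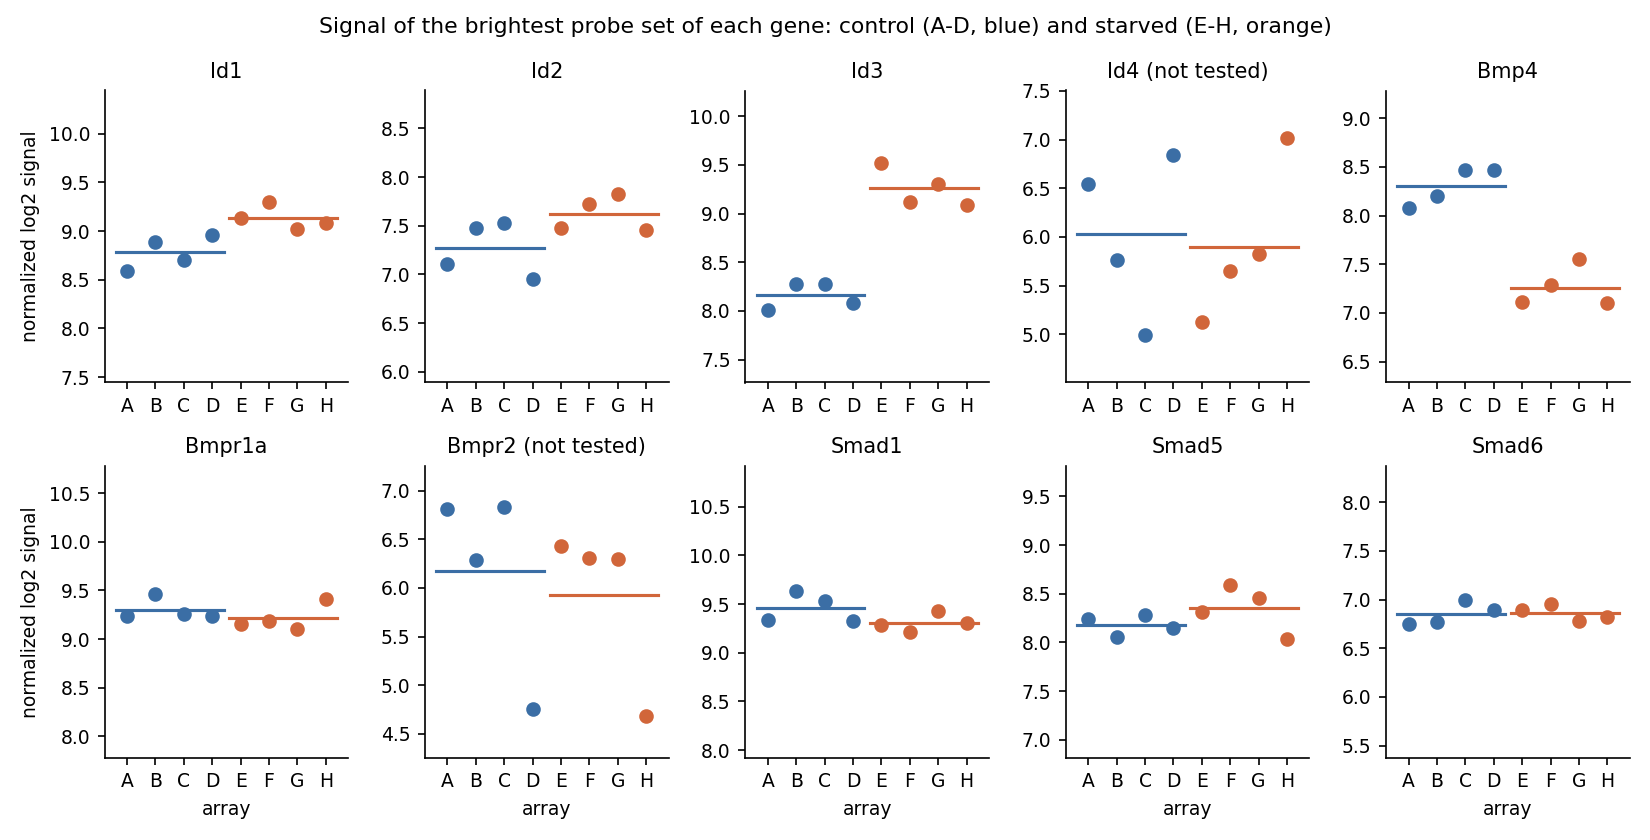
Normalized log2 signal (vertical axis, each panel spanning 3 log2 units) of the brightest probe set of each of the 10 genes on each array (horizontal axis), with controls A to D in blue, starved E to H in orange and group means as lines. The starved arrays of Id3 lie at 9.09 to 9.52, all above the controls at 8.01 to 8.28, and those of Bmp4 at 7.10 to 7.55, all below the controls at 8.08 to 8.47.

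Id3 encodes an Id factor expressed in many dividing precursor cells. Its normalized log2 signal was 8.01, 8.28, 8.28 and 8.08 in controls A to D against 9.52, 9.12, 9.30 and 9.09 in starved arrays E to H. Every starved array lay above every control, by at least 0.81 log2 units between the nearest arrays. The change was 1.09 ± 0.13 on the log2 scale, with a 95% interval of 0.82 to 1.37 (limma, adjusted p = 0.000228). The separation was visible before any scaling: the deposited intensity was 351.8, 272.8, 304.1 and 329.9 units in the controls and 521.5, 450.4, 540.1 and 603.6 in the starved arrays. This was so although starved E, F and G had lower trimmed mean intensities (243 to 296) than every control (317 to 455). In these unscaled values the change was 0.73 ± 0.22 (limma, adjusted p = 0.0295), which is 1.06 above the median of all tested probe sets there.

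Id1 is a widely used readout of BMP signalling in C2C12 cells. Its normalized log2 signal was 8.59, 8.89, 8.70 and 8.96 in controls A to D against 9.14, 9.30, 9.02 and 9.08 in starved arrays E to H. All starved arrays were above all controls here too, but the gap between starved G and control D was narrow. The change of 0.35 ± 0.11 did not pass after adjustment over all probe sets (limma, adjusted p = 0.0814, 95% interval 0.10 to 0.60). Without scaling the change was -0.03 (limma, adjusted p = 0.936), which is 0.30 above the median of all tested probe sets there. Deposited intensities of 414.1 to 625.2 in controls and 399 to 601.5 in starved arrays overlapped.

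Id2 gave a similar change to that of Id1 with more spread between arrays. Its brightest probe set read 7.11, 7.48, 7.53 and 6.95 in controls A to D against 7.48, 7.72, 7.83 and 7.46 in starved arrays E to H. Controls B and C reached into the starved range. The change was 0.36 ± 0.17 (limma, adjusted p = 0.24, 95% interval -0.02 to 0.73). A second tested probe set of Id2 stood at 0.09 ± 0.19 (adjusted p = 0.823), with controls at 7.08 to 7.39 inside the starved range of 6.91 to 7.80. The third was too dim for the test, with log2 signals of 5.05 to 5.79 in controls and 4.12 to 6.40 in starved arrays.

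Id4 had 3 probe sets, and each lay below the brightness required for the test (log2 6.61). The brightest of them read 6.54, 5.76, 4.99 and 6.84 in controls A to D against 5.13, 5.65, 5.83 and 7.02 in starved arrays E to H. The groups overlapped over nearly their whole range. Fitted without the brightness requirement, the 3 probe sets of Id4 stood at -0.13 ± 0.48, 0.67 ± 0.43 and -0.32 ± 0.31 (limma, adjusted p from 0.484 to 0.926). The files hold no detection calls, so whether Id4 was expressed cannot be stated.

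That Id3 passed and its paralogs did not is no proof of a difference between them, so the changes were compared array by array. The log2 difference between 2 genes was formed within each array, and its shift between the groups was tested by a two-sided exact permutation test over the 70 labellings of 8 arrays. The 4 pairs compared were the 3 among Id1, Id2 and Id3, and Smad1 with Smad5. The pair of Bmpr1a and Bmpr2 could not be compared because Bmpr2 was too dim. Id1 changed by 0.74 less than Id3 on the log2 scale, with an interval of -1.26 to -0.25 for Id1 minus Id3, and Id2 also by 0.74 less, with an interval of -1.29 to -0.26. In both pairs the 4 starved arrays lay apart from the 4 controls, which gave p = 0.0286 in the exact test, the smallest p that 4 against 4 arrays allow. Adjusted over the 4 pairs these p-values became 0.0571, above the threshold. Since both unadjusted values were already the smallest possible, they could pass only if another pair reached that p too. The intervals are at the 95% level and are not adjusted for the number of pairs. Id1 and Id2 differed by -0.01 in their change (exact permutation p = 1), although the interval of -0.82 to 0.48 is wide. Starting from the control mean of each pair, starved arrays of Id1 minus Id3 ranged from -1.01 to -0.44, against -0.20 to 0.25 in controls.

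**Figure D2:**
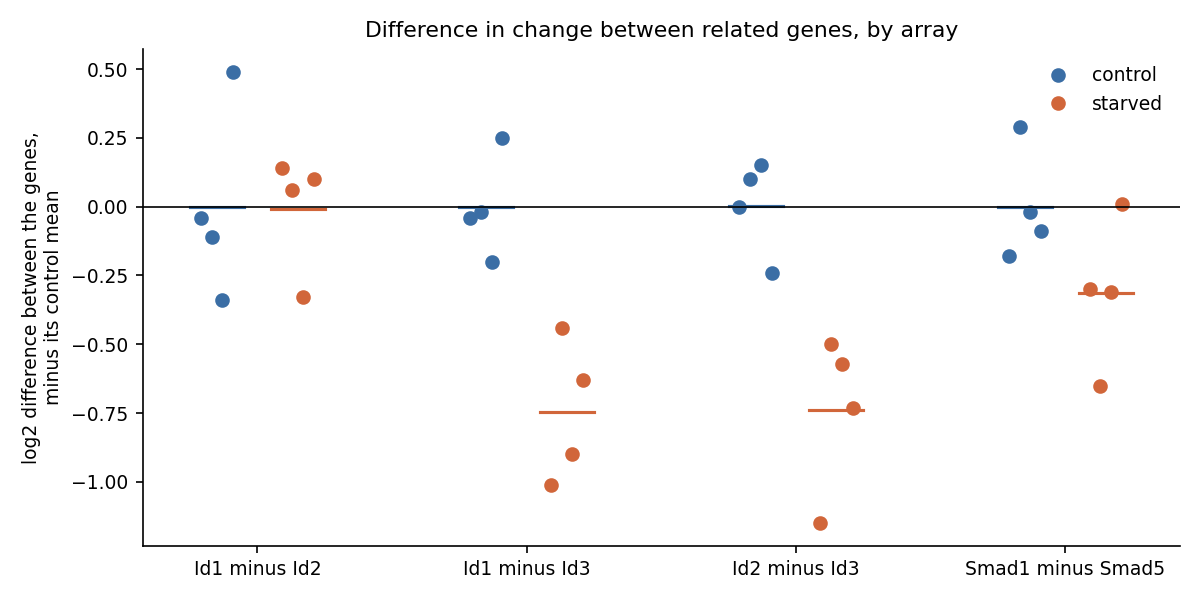
Log2 difference between the signals of 2 related genes on each array, after subtracting its mean over the controls (vertical axis), for 4 pairs (horizontal axis), with controls in blue, starved arrays in orange and group means as lines. Starved arrays lie apart from controls for Id1 minus Id3 and for Id2 minus Id3, at -1.15 to -0.44, and overlap with controls for Id1 minus Id2.

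Bmp4, a ligand that activates Smad1 and Smad5, had a single probe set. Its normalized log2 signal was 8.08, 8.20, 8.47 and 8.47 in controls A to D against 7.11, 7.29, 7.55 and 7.10 in starved arrays E to H. Every starved array lay below every control. Bmp4 fell by 1.04 ± 0.15 on the log2 scale (limma, adjusted p = 0.00107, 95% interval -1.37 to -0.71). The deposited intensity was 370.3, 256.2, 349.7 and 440 units in the controls against 92, 125.5, 149.7 and 147.9 in the starved arrays. The ligand thus moved opposite to Id3 on the same arrays, and both directions held in each scaling.

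Bmpr1a, the type I receptor that binds Bmp4, was read by 5 probe sets, all bright enough for the test. The brightest read 9.24, 9.46, 9.26 and 9.24 in controls A to D against 9.15, 9.19, 9.10 and 9.41 in starved arrays E to H. The groups overlapped, and control B stood above the other controls. The change was -0.08 ± 0.10 (limma, adjusted p = 0.681), with a 95% interval of -0.31 to 0.14. The other 4 probe sets of Bmpr1a also lay below 0, from -0.44 to -0.14, with adjusted p from 0.224 to 0.528. The type II receptor Bmpr2 had a single probe set that was too dim to be tested. It read 6.81, 6.29, 6.83 and 4.76 in controls A to D against 6.43, 6.31, 6.30 and 4.68 in starved arrays E to H. Control D and starved H were both far below the others, so the spread within each group was larger than the difference of -0.24 ± 0.52 seen without the brightness requirement (limma, adjusted p = 0.869).

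The Smad genes did not pass either. Smad1, a carrier of the BMP signal to the nucleus, read 9.34, 9.63, 9.53 and 9.33 in controls A to D against 9.28, 9.21, 9.43 and 9.31 in starved arrays E to H. These ranges overlapped at a change of -0.15 ± 0.10 (limma, adjusted p = 0.419, 95% interval -0.37 to 0.08), and the dimmer probe set of Smad1 stood at -0.22 ± 0.21. Smad5, which acts beside Smad1, read 8.24, 8.06, 8.28 and 8.15 in controls and 8.31, 8.59, 8.46 and 8.04 in starved arrays. Starved H was the lowest of all 8 and starved F the highest, at a change of 0.16 ± 0.13 (limma, adjusted p = 0.511, 95% interval -0.13 to 0.46). Its other probe set was too dim for the test. Smad6, the inhibitory Smad, read 6.75, 6.77, 7.00 and 6.89 in controls and 6.89, 6.96, 6.78 and 6.82 in starved arrays, close to the brightness limit. Its groups were interleaved at a change of 0.01 ± 0.16 (limma, adjusted p = 0.981, 95% interval -0.33 to 0.35). The difference in change between Smad1 and Smad5 was -0.31, with an interval of -0.94 to 0.18 (exact permutation p = 0.114; 0.152 adjusted over the 4 pairs).

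**Figure D3:**
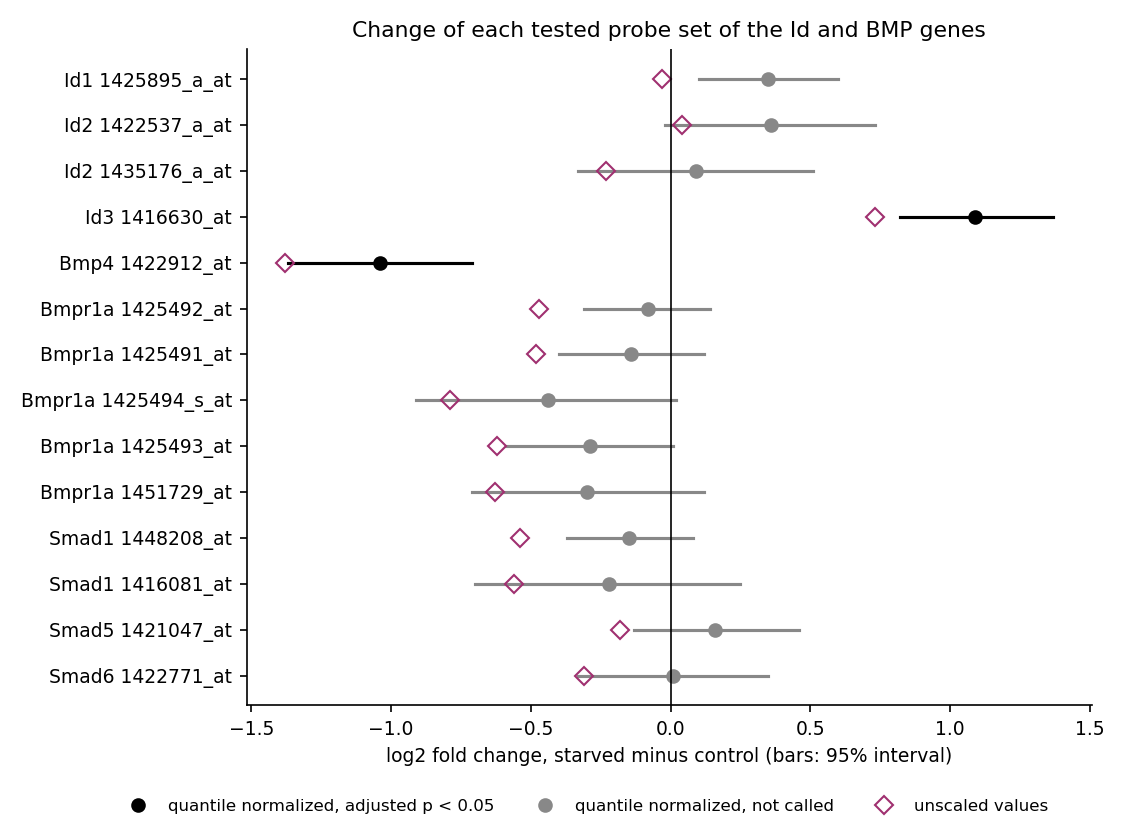
Log2 fold change, starved minus control (horizontal axis), of each of the 14 tested probe sets (vertical axis), with 95% intervals as bars, called probe sets in black, others in grey, and the change in unscaled values as open diamonds. Id3 at 1.09 and Bmp4 at -1.04 are the called ones. The unscaled diamonds lie further left by about the shift of all probe sets, whose median was -0.33 in those values and 0.02 after normalization.

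Of the 14 tested probe sets 1 was called higher and 1 lower, where 4.37% and 6.23% of all tested probe sets were. Groups did not overlap for 3 of the 8 genes, against 18.5% of all genes tested. Id1 and Id3 had all starved arrays above the controls, as had 8.23% of all genes, and Bmp4 had all of them below, as had 10.2%. The genes most like Id3 in their pattern over arrays lay outside these lists. By Pearson correlation of normalized log2 signals over the 8 arrays, given as a description, the nearest of 8351 other genes were Srm, the spermidine synthase (r = 0.990), Ranbp1, a regulator of nuclear transport (r = 0.985), and Btf3, a factor bound to nascent proteins (r = 0.984). All 3 rose in starved myotubes, by 0.68, 0.48 and 0.59 on the log2 scale (limma, adjusted p from 0.000373 to 0.00458). Nearest to Id1 were Fam193b (0.981), Chd7 (0.959) and Prepl (0.957), and nearest to Id2 were Ggt5 (0.929), Jdp2 (0.920) and Spg21 (0.914), none of which passed. The arrays fall into the same groups for every gene, so a difference between groups alone gives a high correlation.

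In the wider pathway most tested extracellular antagonists and modulators fell, and most tested receptors and intracellular genes did not pass. Beyond the 10 genes, 6 lists of ligands, receptors, extracellular antagonists, intracellular modulators, BMP targets and basic helix-loop-helix factors held another 92 genes. Of these 78 had a probe set with a single symbol and 48 were tested. Among the 48, 2 rose, 11 fell and 35 did not pass, against 4.25% higher and 6.94% lower over all genes tested. At an unadjusted p under 0.05 (limma), used beside some lists below, 930 of all 8352 genes tested were higher and 1100 lower. The median change of the 48 was -0.15, beside 0.01 for all genes.

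Ligands other than Bmp4 were mostly too dim, so that 4 of 13 were tested with Bmp4 included. Gdf5, a ligand of joints and cartilage, read 9.12, 9.40, 8.96 and 9.26 in controls and 8.27, 8.00, 7.76 and 7.13 in starved arrays. It was lower in all 4 starved arrays and fell by 1.39 ± 0.21 (limma, adjusted p = 0.00165). Bmp8a (-0.44 ± 0.22) and Gdf2 (-0.34 ± 0.41) did not pass. Bmp2, Bmp5, Bmp6 and Bmp7 were below the brightness limit. These 4 were named after their brightness was seen.

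Extracellular antagonists and modulators, which bind BMPs or related ligands or cut their binding proteins, fell in 7 of 9 tested genes and rose in 0, with a median change of -0.71 (limma; at an unadjusted p under 0.05 the numbers were the same). Fstl1, a secreted follistatin-like glycoprotein, fell by 1.41 ± 0.09 (limma, adjusted p = 3.1e-06), from 11.08 to 11.24 in controls to 9.63 to 9.97 in starved arrays, and its other probe set was called at -1.61. Follistatin (Fst), which binds activins and some BMPs, fell by 1.24 ± 0.14. Nbl1, a DAN-family antagonist, fell by 0.85 ± 0.16, and Bmp1, a protease that cleaves the antagonist chordin and is no BMP ligand despite its name, fell by 0.71 ± 0.11. These 4 were called in every alternative tried. Weaker calls were those of the BMP antagonist Grem1 (-0.80 ± 0.20, adjusted p = 0.0255), Fstl3 (-0.54 ± 0.13, adjusted p = 0.023) and Twsg1 (-0.45 ± 0.10, adjusted p = 0.0172). The call of Grem1 was lost without control A (-0.64), control D (-0.70), starved E (-0.73), starved F (-0.82) or starved G (-0.81). That of Fstl3 was lost without control A (-0.53), control C (-0.45), control D (-0.56), starved F (-0.52) or starved H (-0.53). That of Twsg1 was lost without control C (-0.40) and with the mean of its 3 probe sets (-0.17), since the other 2 stood at -0.04 and -0.02. Chordin (Chrd), the antagonist cut by Bmp1, stood at -0.07 ± 0.22 and Chrdl2 at -0.03 ± 0.30.

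Among receptors and co-receptors 1 of 7 tested genes rose and 0 fell, with a median of -0.08 (limma; 1 was lower at an unadjusted p under 0.05). Neo1, a receptor for repulsive guidance molecules that act as BMP co-receptors, rose by 0.51 ± 0.13 (limma, adjusted p = 0.0333). Its call was lost in unscaled values (0.19, adjusted p = 0.631), without the brightness filter (adjusted p = 0.0668), and when any 1 of control A (0.52), control B (0.51), control D (0.44), starved E (0.50), starved F (0.56), starved G (0.53) or starved H (0.45) was left out. The type I receptor Acvr1 (-0.41 ± 0.12, adjusted p = 0.0539) and the type II receptor Acvr2a (0.05 ± 0.18) did not pass, and the other 2 probe sets of Acvr1 stood at -0.34 and 0.28. Of 15 tested Smads and intracellular modulators 1 rose and 1 fell, with a median of -0.06. Skil, which represses Smad-driven transcription, fell by 0.98 ± 0.14 (adjusted p = 0.0012), while its other probe set stood at -0.11 and was not called. Ppm1a, a phosphatase that acts on Smads, rose by 0.33 ± 0.09 (limma, adjusted p = 0.0314). That call was lost in unscaled values (-0.06), median centring (0.26), 75th percentile centring (0.30) and without an intensity trend. It was also lost without control A (0.29), control D (0.31), starved E (0.32), starved F (0.32) or starved G (0.33). The brightest of the rest, Fkbp1a (0.01 ± 0.08), Hipk2 (0.16 ± 0.11) and Tob1 (-0.07 ± 0.16), did not pass. Nor did the other Smads of the pathway, named after their values were seen: Smad4 stood at 0.12 ± 0.13, Smad7 at -0.30 ± 0.16 and Smad9 at 0.41 ± 0.18.

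Of 13 known BMP targets tested, with the Id genes and Smad6 included, Id3 rose, Hes1 fell and 11 did not pass, with a median of 0.01. That is 7.69% in each direction, near the shares over all genes. At an unadjusted p under 0.05 (limma), 3 of the 13 were higher and 1 lower, against 930 and 1100 of all 8352 genes. Hes1, a repressor best known as a Notch target, fell by 0.70 ± 0.12 (limma, adjusted p = 0.00343). Junb (-0.05 ± 0.20) and Gata2 (-0.08 ± 0.13) did not pass. Among basic helix-loop-helix factors, which include the proteins that Id factors bind, 1 of 11 fell and 0 rose, with a median of 0.12 (limma; 2 were lower and 1 higher at an unadjusted p under 0.05). Bhlhe40, a clock-linked repressor, fell by 0.70 ± 0.11 (adjusted p = 0.00162). Neither of the myogenic factors passed, with Myod1 at 0.36 ± 0.11 (adjusted p = 0.0602) and Myog at 0.29 ± 0.14 (adjusted p = 0.244). Myog read 11.90 in control B, the array that stood apart in RNA quality (below), against 12.57 to 12.66 in the other controls. Without control B the change was 0.11 ± 0.05 for Myog and 0.27 ± 0.09 for Myod1, and neither passed. Myod1 passed as higher with 75th percentile centring (adjusted p = 0.0396), when starved G was left out (0.44, adjusted p = 0.0254) and when the brightness filter was raised to the 60th percentile (0.0468). The E protein gene Tcf4 stood at -0.36 ± 0.14 through its brightest probe set, with the other 4 at -0.49 to -0.28 and 1 of them called.

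**Figure D4:**
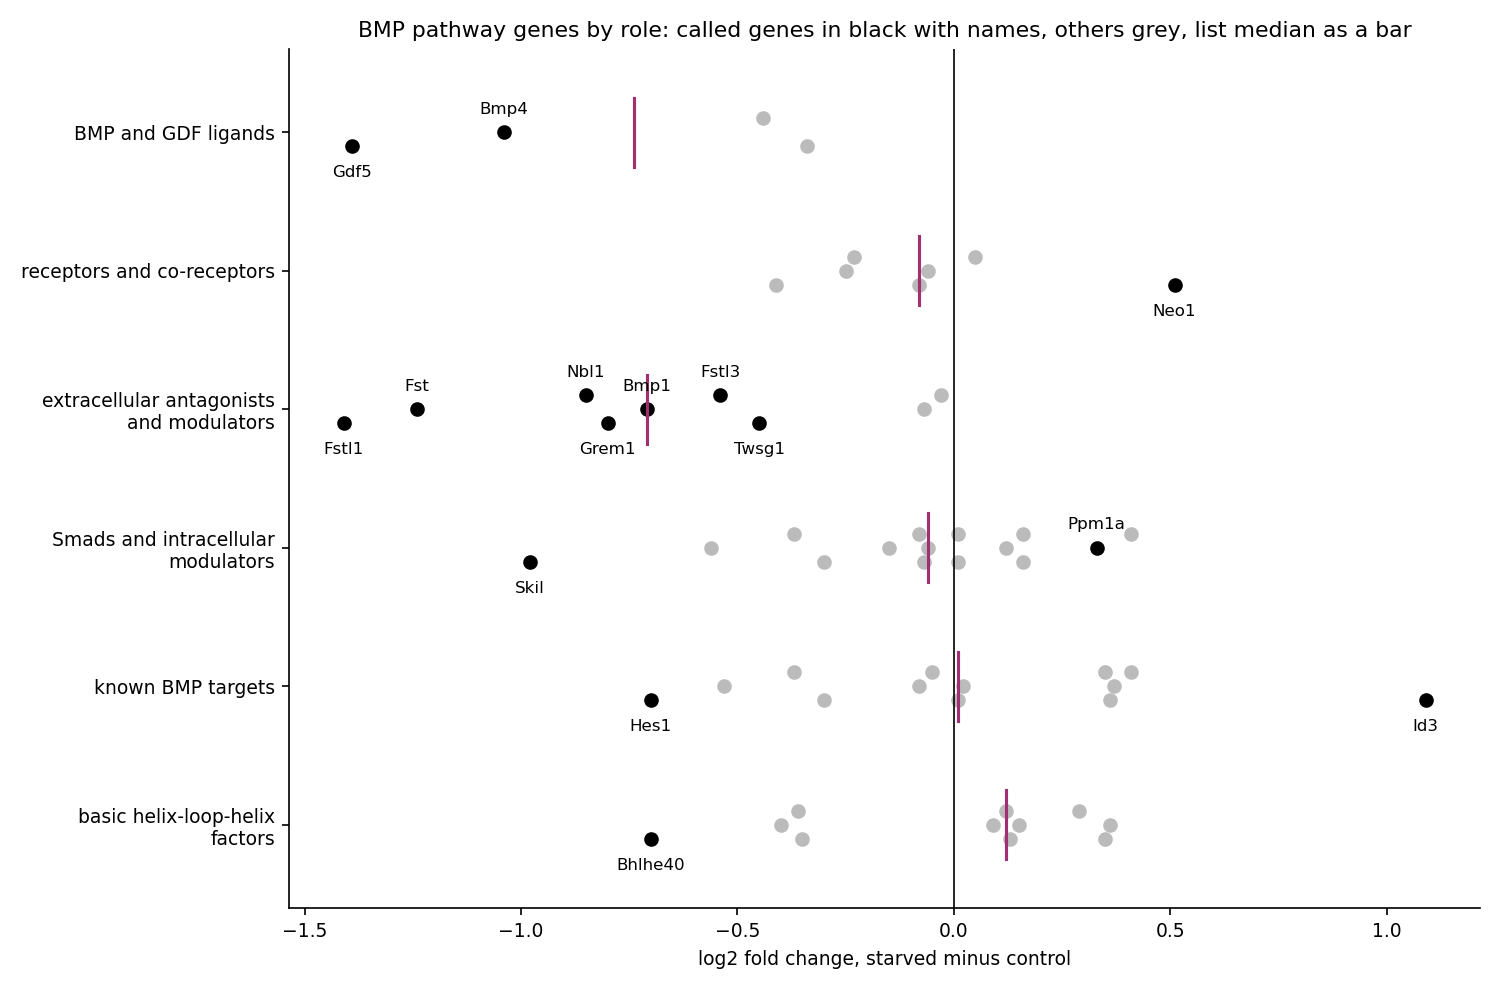
Log2 fold change, starved minus control (horizontal axis), of the tested genes of 6 lists (vertical axis), called genes in black with their names, others in grey, and each list's median as a vertical bar. Of the 9 antagonists and modulators 7 are called lower, from Fstl1 at -1.41 to Twsg1 at -0.45, while Id3 at 1.09 stands furthest to the right. A gene in several lists is drawn in each.

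Markers of cell types were read on the same arrays. For comparison, 4.25% of all 8352 genes tested were called higher and 6.94% lower. At an unadjusted p under 0.05 (limma), 930 of these genes were higher and 1100 lower. All 13 myotube markers were bright enough for the test, with Actn2 called higher (0.58) and Des lower (-0.22). Of the 13, 4 were lower and 1 higher at an unadjusted p under 0.05 (limma). Their summed signal was 16.35 to 16.43 on the log2 scale in controls and 16.29 to 16.35 in starved arrays. Of 12 markers of undifferentiated myoblasts and reserve cells, in which Id genes are known to be high, 8 were tested. Vcam1 rose by 0.93 ± 0.13, and its other probe set was called at 0.56. Cxcr4, Notch3 and Spry1 were called lower (-0.44, -0.37 and -0.59). The other probe set of Notch3 stood at 0.14 and was not called. Pax7, a defining gene, stood at -0.10 ± 0.19 (limma, adjusted p = 0.806). Myf5 and Cd34 were too dim. The summed signal of the 8 was 12.16 to 12.29 in controls and 12.02 to 12.14 in starved arrays. Each summed signal was added up on the linear scale, so bright genes such as Ncam1 (mean log2 9.99) outweigh dim ones such as Pax7 (7.29). The part of undifferentiated and reserve cells in the change of Id3 was not tested. Of 12 proliferation markers 8 were tested and 1, Cdk1, was called lower, with summed signals of 11.21 to 11.31 and 10.86 to 11.05. Of these 8, 2 were lower and 0 higher at an unadjusted p under 0.05 (limma). Fibroblast and smooth muscle markers fell in 5 of 9 tested of 12, with summed signals of 14.68 to 14.73 in controls and 14.31 to 14.37 in starved arrays. The 5 were Tagln (-2.65), Pdgfrb (-1.83), Col1a1 (-1.15), Acta2 (-0.30) and Des, the last also counted among the myotube markers. The other probe set of Des stood at 0.12 and was not called, while those of Pdgfrb (-2.92) and Col1a1 (-1.27) were called. Not called were Pdgfra (0.56, all starved arrays above the controls), Lum (0.34), Thy1 (0.20) and Col3a1 (-0.08). Of the 9, 5 were lower and 1 higher at an unadjusted p under 0.05 (limma). The part of the 5 in the fall of Bmp4, Gdf5 and the antagonists was not tested. Adipocyte markers rose in 2 of 5 tested of 11, with summed signals of 10.07 to 10.15 in controls and 10.46 to 10.85 in starved arrays. The 2 were Lpl (1.16) and Slc2a4 (0.63), which muscle also expresses, while Fabp4 (0.13), Retn (0.12) and Cebpa (0.04) were not called and the list's median was 0.13. Adipoq and Pparg were too dim, and the part of these markers in the change of Id3 was not tested. Of 13 osteoblast and chondrocyte markers 4 were tested and 0 called, with summed signals of 9.20 to 9.87 and 9.39 to 9.95 (limma; 2 were higher at an unadjusted p under 0.05). The markers named in this paragraph were picked after their values were seen.

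The trimmed mean intensity ran from 243 to 455 units over the 8 arrays. Control B stood apart in RNA quality, where the Gapdh control probe sets at the 3′ end exceeded those at the 5′ end by 1.40 on the log2 scale. The same difference in the other 7 arrays lay at -0.23 to -0.04. Without control B the change of Id3 was 1.12 and that of Bmp4 -1.07, both still called.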

How the data were processed

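RNA of control and starved C2C12 cells, 4 samples of each, was hybridised to Affymetrix mouse arrays, 1 per sample. The deposited table holds 1 intensity per probe set and array on a linear scale. The software that made it was not given in the sources used here. Groups and array letters come from the labels, and the letters pair no arrays. The arrays' trimmed means (2% dropped at each end) differed by a factor of up to 1.87, so the values were quantile normalized after adding 10.9 (the 10th percentile) and taking log2. Fold changes on this scale understate changes of dim genes. After removal of 64 control probe sets, those above the 40th percentile of brightness were tested with limma 3.58.1 in R 4.3.3 (lmFit, eBayes with an intensity trend, Benjamini-Hochberg adjustment). The number of arrays limits the precision.

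Gene names come from the platform annotation of 2016, with symbols updated by gene number through RefSeq (GRCm38.p6). Promoter windows are RefSeq's. The genes, lists, tests and alternatives were chosen with earlier results of these data known. Named were all 10 genes, every called gene of the wider lists, up to 3 uncalled ones a list by brightness, and the 3 genes most correlated with each tested Id gene. Exceptions are stated. Alternatives were unscaled values, median and 75th percentile centring, other offsets (none, 25th percentile), filters (none, 60th percentile) and variance models, array weights, averaging over the probe sets of a gene, and leaving out each array. The procedure was tested on simulated data. Plots were made in Python 3.11.15 (matplotlib 3.10.9).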

Additional observations from a re-analysis of the deposited data

Results flagged for a closer look

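In 44 groups of 4 arrays (each of the 20 probe sets, the trimmed mean and the Gapdh ratio, in controls and in starved arrays), Dixon's test at the 95% level marked 4 single arrays, where chance marks about 1 in 20 groups. The gap to the nearest array took up a share of the group's range that is given for each. Control B stood at 9.46 for the brightest probe set of Bmpr1a, above the other controls at 9.24 to 9.26 (share 0.886). The same array had the Gapdh 3′ to 5′ log2 ratio of 1.40, against -0.22 to -0.12 in the other controls (share 0.944). Starved H stood at 4.68 for Bmpr2, below 6.30 to 6.43 (share 0.926). Control D stood at 5.45 for the dim probe set of Smad5, below 6.07 to 6.10 (share 0.955).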

How the results depend on the processing

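Id3 stayed called higher and Bmp4 called lower in all 19 alternatives, Id3 with changes from 0.73 to 1.16 and Bmp4 from -1.38 to -0.92, and no other gene of the 10 was called in any of them, although Id1 reached an adjusted p of 0.05 with array weights. In unscaled values Id1 stood at -0.03, Smad5 at -0.18, Smad6 at -0.31 and Ppm1a at -0.06, on the other side of 0, because the median of all probe sets moved to -0.33. Smad6 stood at -0.0047 with array weights and from -0.02 to 0.06 when 1 array was left out. Id1 minus Id2 was 0.03 with an offset at the 25th percentile, 0.13 with probe sets averaged per gene and from -0.12 to 0.16 with 1 array left out. For the pairs of genes, no exact test p is given with 1 array left out. The count of higher genes in the wider lists, Id3 included, was 3 and fell to 1 in unscaled values. It ranged from 1 to 3 with 1 array left out, and was 1 without control A, control D, starved E or starved F. The count of lower genes in these lists was 12 and ranged from 10 to 16. Smad6, Id2 and Neo1 were too dim for 1 alternative, a filter at the 60th percentile. No paired analysis was possible because the array letters differ between the groups. Signals without detection calls leave Id4 and Bmpr2 without a statement on expression.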
